A study of Mus musculus with 6 samples.

Results

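Osteoblasts, which build bone, and osteoclasts, which resorb it, are each set up by a small group of regulator genes, and 10 such genes were read here in heated mouse testis. They were chosen by name: 4 transcription factors of osteoblasts (Runx2, Sp7, Msx2 and Dlx5), 3 genes of the RANKL-OPG axis (Tnfsf11, Tnfrsf11a and Tnfrsf11b) and 3 enzymes that osteoclasts use to dissolve bone (Ctsk, Acp5 and Car2). All 10 had a probe on the array, 13 of 55681 probes in all, with 3 probes for Runx2 and 2 for Acp5. The study asks which genes bear on calcification inside the testis after heat. Its samples were whole testes from 3 B6.MRLc1 mice, a congenic strain with a C57BL/6 background that carries the telomeric part of MRL chromosome 1 (67.97 to 81.63 cM per the labels), and from 3 wild-type C57BL/6 (B6) mice. All were male and 3 months old, and all had been heated once, at 43 degrees C for 20 min on the scrotum, 10 days before the testis was taken. Unheated testes were not analysed here, so nothing below is a response to heat, and no bone sample was measured on these arrays.

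Runx2 and Sp7 are needed in turn to form osteoblasts, while Msx2 and Dlx5 are homeobox factors that act on the same lineage. Osteoblasts and stromal cells make RANKL (gene Tnfsf11), which binds its receptor RANK (Tnfrsf11a) on cells of the macrophage lineage and drives them to become osteoclasts, and osteoprotegerin (OPG, gene Tnfrsf11b) is a secreted decoy that captures RANKL. The mature osteoclast degrades collagen with cathepsin K (Ctsk), carries tartrate-resistant acid phosphatase (Acp5), and makes acid with carbonic anhydrase 2 (Car2). These enzymes are also made outside bone: macrophages also hold Acp5 and Ctsk, and red cells hold Car2.

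The level of each gene was read by 60-base probes, and the readout of 2 genes turned on what their probes are. The first 30 bases of the probes that were dim, or that overlapped each other, are shown 5′ to 3′ in the sense of the transcript, with positions in build mm9 from the array annotation. In the Acp5 pair the capitals mark bases that both probes hold within the stretches shown.
Runx2 probe 1, chr17:44744925-44744984, minus strand: gcagcacgctattaaatccaaatttgccta
Runx2 probe 2, chr17:44951128-44951187, minus strand: aaaggagggactatggcgtcaaacagcctc
Runx2 probe 3, chr17:44633034-44633093, minus strand: tgattgtttttctcatttatacctacattt
Sp7, chr15:102187692-102187751, minus strand: tttctttttcagttgagttttgggttgttc
Dlx5, chr6:6828063-6828122, minus strand: gtgttgtgctggtttagaaatcagaaagaa
Tnfsf11, chr14:78677444-78677503, minus strand: gatacataataggctactgaaatctgtcag
Acp5 probe 1, chr9:21931190-21931249, minus strand: ctttcttgggaacggGCTTTCCTTTCAGTC
Acp5 probe 2, chr9:21931175-21931234, minus strand: GCTTTCCTTTCAGTCaagtcttactgtcac
The 3 Runx2 probes span 318154 bases of chromosome 17 and had a GC content of 45.0%, 55.0% and 35.0%, so they sample separate stretches of the gene. The 2 Acp5 probes start 15 bases apart and share 45 bases, so they are close to 1 measurement made 2 times.

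Runx2 and Tnfsf11 were not well above background on any of the 6 arrays, by the scanner software's own flag, whereas the other 8 genes were on at least 3. Msx2, Tnfrsf11a, Tnfrsf11b, Ctsk, Acp5 and Car2 were well above background on all 6 arrays. Sp7 passed on 4 arrays and Dlx5 on 3. Of 22128 genes named through RefSeq, 69.6% were well above background on all 6 arrays, 77.6% on at least 3 and 16.8% on none, so 6, 8 and 2 of 10 genes are close to these shares. None of the 8 genes tested was called different between the strains by limma at an adjusted p under 0.05, against 2.62% of the 25275 genes tested. At an unadjusted p under 0.05 there were 2, Dlx5 and Tnfrsf11a, against 20.3% of all genes. Here and below, signals are processed intensities, levels are log2 of the signal divided by the array's 75th percentile, and differences are B6.MRLc1 minus B6. Every p comes from limma, and each adjusted p from Benjamini-Hochberg adjustment over all genes or probes tested in its fit.

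**Figure D1:**
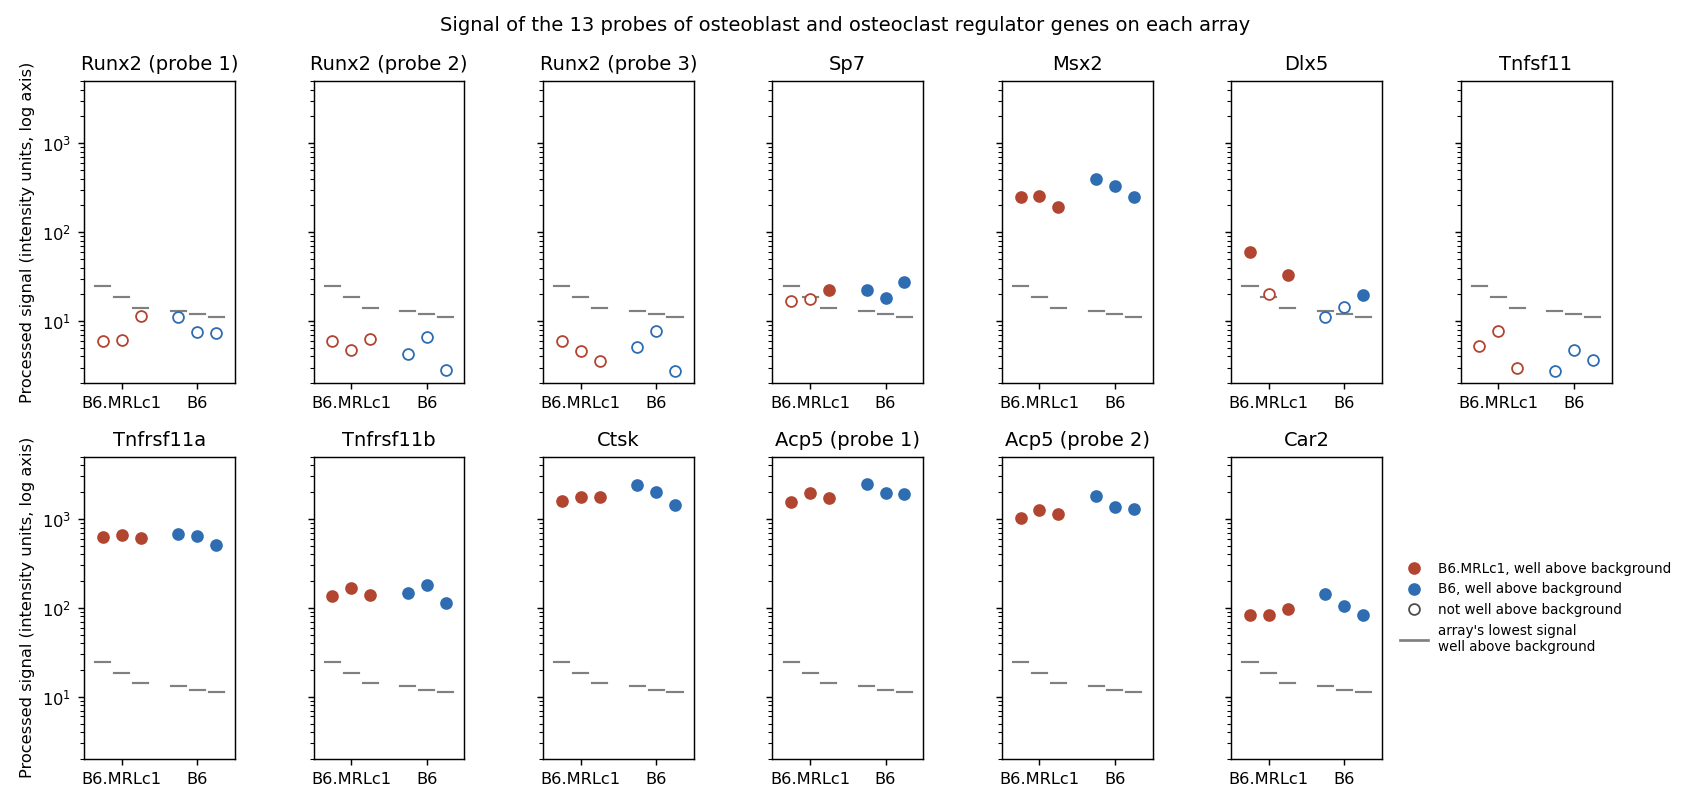
Processed signal (intensity units, log axis) of the 13 probes on each of the 3 B6.MRLc1 and 3 B6 arrays. Filled points were well above background, open points were not, and grey bars mark each array's lowest signal well above background; all Runx2 and Tnfsf11 points are open, and the Dlx5 points of B6.MRLc1 all lie above those of B6.

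Runx2, the first factor that commits a cell to the osteoblast lineage, was near background with each of its 3 probes. Probe 1 had 6.04, 6.17 and 11.4 intensity units on B6.MRLc1 arrays 1 to 3, against 11.2, 7.47 and 7.25 on the B6 arrays. Probe 2 gave 5.99, 4.78 and 6.23 in B6.MRLc1 and 4.23, 6.55 and 2.83 in B6. These strains overlapped on all 3 probes, and no point reached the array's lowest signal well above background, which was 24.8, 18.7 and 14.2 in B6.MRLc1 and 13.1, 11.9 and 11.2 in B6. Probe 3 gave 5.96, 4.60 and 3.53 in B6.MRLc1 and 5.13, 7.63 and 2.77 in B6. A weaker comparison set the signals against the array's 308 negative control spots, whose 95th percentile was 6.52, 7.86 and 4.08 in B6.MRLc1 and 3.72, 3.25 and 3.12 in B6. By that limit probe 1 stood above the controls on 1 B6.MRLc1 array and on 3 B6 arrays. Probe 2 did on 1 of B6.MRLc1 and 2 of B6, and probe 3 on 0 of B6.MRLc1 and 2 of B6. The median control lay close to the scanner software's estimate of additive error on each array, such as 5.70 against 5.68 on B6.MRLc1 array 1. The limit thus follows each array's floor and is higher in B6.MRLc1, so these counts measure neither detection nor a strain difference. No fold is given for Runx2, since both strains lay below the level at which the array measures.

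Sp7, also called osterix, acts after Runx2 and was close to the limit of measurement. Its signal was 17.0, 17.6 and 22.6 in B6.MRLc1 testes, against 22.6, 18.2 and 27.4 in B6 testes. It passed the background flag on 1 array of B6.MRLc1 and on all 3 of B6, although the signals of the strains overlapped. The dimmest spot that could pass was brighter on B6.MRLc1 arrays 1 and 2 than the Sp7 signal there, so the unequal number of arrays passed is no measure of a difference. The Sp7 level was -4.93 ± 0.25 in B6.MRLc1 testes and -4.82 ± 0.38 in B6 testes (SD, n = 3 each), a difference of -0.11 (SE 0.22, adjusted p = 0.806). The 95% interval of the difference was -0.66 to 0.44, and its sign turned under 5 of 16 alternatives. Some of the 16, such as those on the choice of probe, could not move the value of a gene with 1 probe.

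Dlx5, a distal-less homeobox factor that acts upstream of Sp7, had the widest strain difference among the 8 genes tested, and it did not pass. Its signal was 59.4, 20.0 and 32.9 in B6.MRLc1 testes, against 11.2, 14.6 and 19.4 in B6 testes. All 3 B6.MRLc1 signals were brighter than those of B6, but once each array was scaled B6.MRLc1 array 2 (level -4.92) overlapped B6 array 3 (-4.90). It passed the background flag on 2 arrays of B6.MRLc1 and 1 of B6. The mean level was -4.08 ± 0.84 in B6.MRLc1 testes and -5.42 ± 0.50 in B6 testes (SD, n = 3 each), which is a difference of 1.34 (SE 0.47, 95% interval 0.17 to 2.52, unadjusted p = 0.0312, adjusted p = 0.199). With normexp background correction, which draws dim values together, the difference was 0.45 (adjusted p = 0.184). With array weights it passed, at 1.33 (adjusted p = 0.0461), under a setting that called 4236 genes in all. It ranged from 0.92 without B6.MRLc1 array 1 to 1.76 without B6.MRLc1 array 2.

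Msx2, a homeobox factor of the msh family that in bone precursors can oppose Dlx5, was measured clearly on every array. Its signal was 250.6, 256.1 and 190.9 in B6.MRLc1 testes, against 395.9, 326.0 and 247.6 in B6 testes. B6 arrays 1 and 2 lay above all B6.MRLc1 arrays and B6 array 3 lay among them. The Msx2 level averaged -1.32 ± 0.21 in B6.MRLc1 testes and -0.99 ± 0.24 in B6 testes (SD, n = 3 each). The difference was -0.33 (SE 0.16, 95% interval -0.72 to 0.07, adjusted p = 0.322), that is 0.798-fold with an interval of 0.607 to 1.05. It kept its sign in all 17 alternatives, from -0.44 to -0.20, and was called in 0 of them. For a bright gene with 1 probe, many of these settings cannot move the difference. They are the background filter, a floor on dim values, the choice of probe, the variance trend and the replicate block. Only the other settings could have turned the sign.

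In the RANKL-OPG axis the ligand was not well above background while both of its binding partners were. Tnfsf11, which encodes RANKL, read 5.19, 7.75 and 2.97 intensity units in B6.MRLc1 testes and 2.74, 4.73 and 3.66 in B6 testes. It exceeded the 95th percentile of negative control spots on 0 B6.MRLc1 arrays and 2 B6 arrays, and the strains overlapped. That limit was higher on the B6.MRLc1 arrays, where the mean signal was also higher (5.30 against 3.71 in B6). The number of arrays above it is thus no measure of a difference. With 1 probe for the gene, the reading holds for the stretch at chr14:78677444-78677503 and for no other part of the transcript.

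Tnfrsf11a encodes RANK, the receptor on osteoclast precursors. It had 630.3, 667.4 and 606.5 intensity units in B6.MRLc1 testes, against 670.7, 643.0 and 513.0 in B6 testes, between 25.4 and 53.9 times the lowest signal well above background on the same array. After scaling, the levels were 0.18, 0.14 and 0.11 in B6.MRLc1 and 0.0019, -0.0073 and -0.18 in B6. All 3 B6.MRLc1 levels were thus above all B6 levels, the only such separation among the 8 genes tested, where 28.6% of all genes showed one. The difference was small: 0.20 (SE 0.07, 95% interval 0.03 to 0.38, unadjusted p = 0.0276, adjusted p = 0.188), or 1.15-fold (1.02 to 1.30). Its sign held in 17 alternatives, from 0.15 to 0.24, with adjusted p from 0.0862 to 0.346. As for Msx2, many of these could not move the difference. Tnfrsf11a is on chromosome 1, the chromosome of the MRL segment, with its probe at chr1:107741892-107741951, plus strand. The labels give the segment in cM, and no base positions of its ends were used here.

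Tnfrsf11b, which encodes the decoy OPG, was well above background on all 6 arrays and differed little. Its signal was 137.5, 166.2 and 140.7 in B6.MRLc1 testes, against 145.5, 181.6 and 114.2 in B6 testes. The B6 arrays held both the highest and the lowest signal. The level averaged -1.96 ± 0.08 in B6.MRLc1 testes and -2.13 ± 0.27 in B6 testes (SD, n = 3 each), with a difference of 0.17 (SE 0.14, 95% interval -0.18 to 0.52, adjusted p = 0.545). In fold terms the interval was 0.880 to 1.43, so a change of 1.5-fold either way lies outside it. With array weights the value was -0.088.

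The 3 osteoclast enzymes were all measured on every array, and none was called. Ctsk, the main collagenase of the osteoclast, had 1604, 1751 and 1745 intensity units in B6.MRLc1 testes, against 2395, 2014 and 1440 in B6 testes. The B6 arrays spread on both sides of the B6.MRLc1 arrays. After scaling the difference was -0.03 (SE 0.14, 95% interval -0.38 to 0.31, adjusted p = 0.918), and without B6 array 1 it was 0.090.

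Acp5, the phosphatase by which osteoclasts are stained, was read by both of its overlapping probes. Probe 1 had 1540, 1952 and 1700 intensity units in B6.MRLc1 testes, against 2465, 1959 and 1889 in B6 testes. Probe 2 had 1021, 1260 and 1128 in B6.MRLc1, against 1798, 1372 and 1277 in B6. On both probes B6 array 1 was the brightest and B6.MRLc1 array 1 the dimmest. Probe 1, which was tested, gave a difference of -0.14 (SE 0.10, 95% interval -0.39 to 0.10, adjusted p = 0.460). Probe 2 gave -0.24 (adjusted p = 0.320) in a limma fit that took each gene's probe with the second highest mean. The levels of the strains overlapped on probe 1 and not on probe 2.

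Car2, the cytosolic carbonic anhydrase that supplies protons for acid secretion, had 82.1, 83.6 and 98.2 intensity units in B6.MRLc1 testes, against 142.7, 103.5 and 83.2 in B6 testes. B6 array 1 was the highest, and the other 2 B6 arrays lay within or next to the B6.MRLc1 range. The difference in level was -0.15 (SE 0.17, 95% interval -0.58 to 0.27, adjusted p = 0.646), and it was 0.011 without B6 array 1. The 3 enzymes shared this array as their highest, as did Msx2.

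Markers of cells that could carry these enzymes were measured in the same tissue. Of 16 macrophage markers 15 were well above background on all 6 arrays. The summed signal of the list, in units of the 75th percentile, was 104.3 to 114.5 in B6.MRLc1 and 98.8 to 131.4 in B6. Of its 16 genes tested 0 were called, against 2.62% of all genes tested. Differences were above 0 for 4 and below it for 12, with a median of -0.17, where all genes tested had 0.018. The red cell list, of which Car1 is also a carbonic anhydrase, summed to 5.53 to 30.7 in B6.MRLc1 and 8.12 to 15.5 in B6, with Epb42 and Ahsp not well above background on any array. Of the 6 red cell genes tested 1 was called, against 2.62% of all genes tested. It was Alas2, an enzyme of haem synthesis, which fell by 1.04 on the log2 scale (adjusted p = 0.00872). The other 5 were above 0 and not called, with Hba-a2 at 0.87 and Hba-a1 at 0.81 (adjusted p = 0.657 and 0.678), and the list's median was 0.42. The strain ranges of the sums overlapped for both lists, and their part in the levels of Ctsk, Acp5 and Car2 was not tested.

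**Figure D2:**
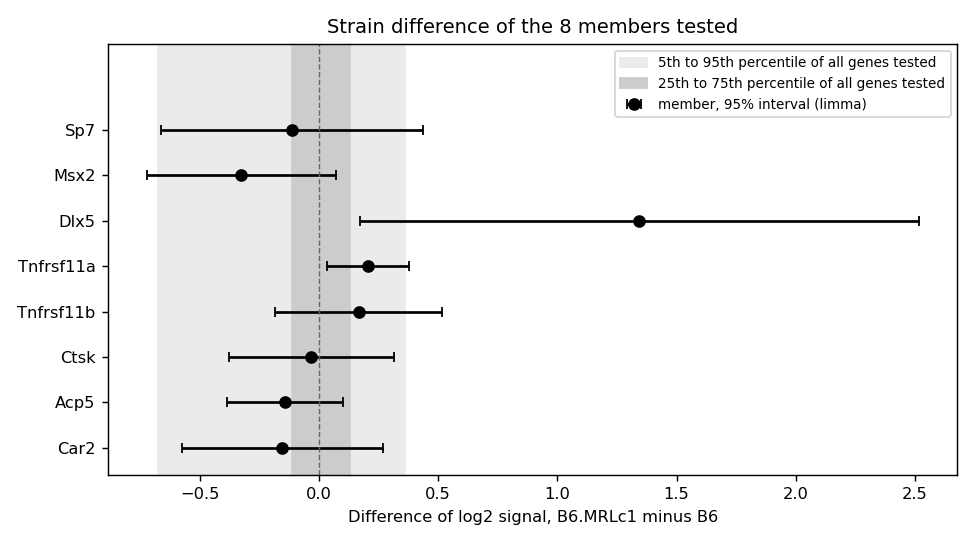
Difference in log2 signal, B6.MRLc1 minus B6, of the 8 genes tested, with the 95% interval of the limma fit (n = 3 arrays per strain), over the 5th to 95th and 25th to 75th percentiles of all 25275 genes tested. Dlx5 and Tnfrsf11a are the intervals that leave out 0, at an adjusted p of 0.199 and 0.188.

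Of the 8 genes, 3 had a difference above 0 (Dlx5, Tnfrsf11a and Tnfrsf11b) and 5 below it, with all 3 osteoclast enzymes below. All genes tested had a median of 0.018. Set against the middle of all genes, where the 25th and 75th percentiles were -0.11 and 0.13, Ctsk lay inside and Sp7 at the edge, and Dlx5 alone lay outside the 5th to 95th percentiles of -0.67 to 0.36. Across all 6 arrays, whatever the strain, Dlx5 varied most (SD 0.96) and Tnfrsf11a least (SD 0.13).

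**Figure D3:**
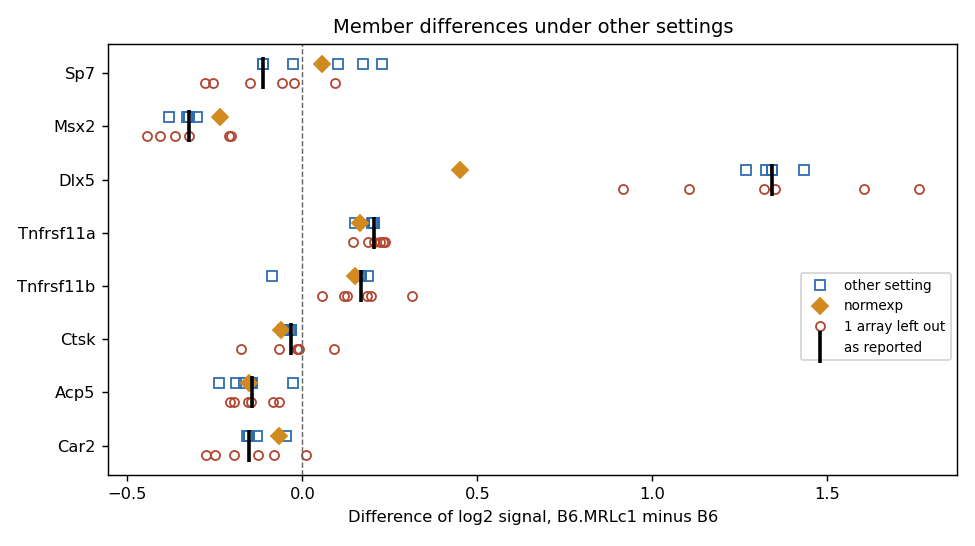
The same differences recomputed under other settings. Black bars are the values as reported, squares other settings, diamonds normexp background correction and circles fits with 1 array left out; Dlx5 runs from 0.45 to 1.76, while Sp7, Tnfrsf11b, Ctsk and Car2 have values on both sides of 0.

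The other genes of these programmes were set against the same background flag. Among 15 osteoblast and osteocyte products, 9 were well above background on all 6 arrays, 4 on some and 2 on none, where all named genes had 69.6% on all 6 and 16.8% on none. Markers of osteocytes, the cells embedded in finished bone, were split. Dmp1 and Phex were the products that passed on no array, while Mepe passed on all 6, at a level of -3.13 ± 0.14 in B6.MRLc1 testes and -3.16 ± 0.16 in B6 testes (SD, n = 3 each, adjusted p = 0.882). Sost, the osteocyte inhibitor of bone formation counted with the regulators, was also not well above background on any array. Bglap, the osteocalcin gene, has near-identical copies, so the member measured is uncertain. Bglap passed on 2 B6.MRLc1 arrays and 3 B6 arrays, with a level of -4.74 ± 0.29 in B6.MRLc1 testes and -4.72 ± 0.62 in B6 testes (SD, n = 3 each). Its copy Bglap2 passed on all 6 and differed by -0.10 (adjusted p = 0.655). Among 24 osteoclast effectors, 21 were well above background on all arrays, Atp6v0d2 on some, and Mmp9 and Calcr, the calcitonin receptor that marks mature osteoclasts, on none. Dcstamp and Ocstamp, both of which osteoclast precursors need to fuse, were well above background on all 6 arrays and differed by -0.0027 and -0.06 (adjusted p = 0.990 and 0.735). Many genes of these lists serve general functions in other cells, lysosomal proteases and proton pump subunits among them, so they are not specific to bone cells.

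**Figure D4:**
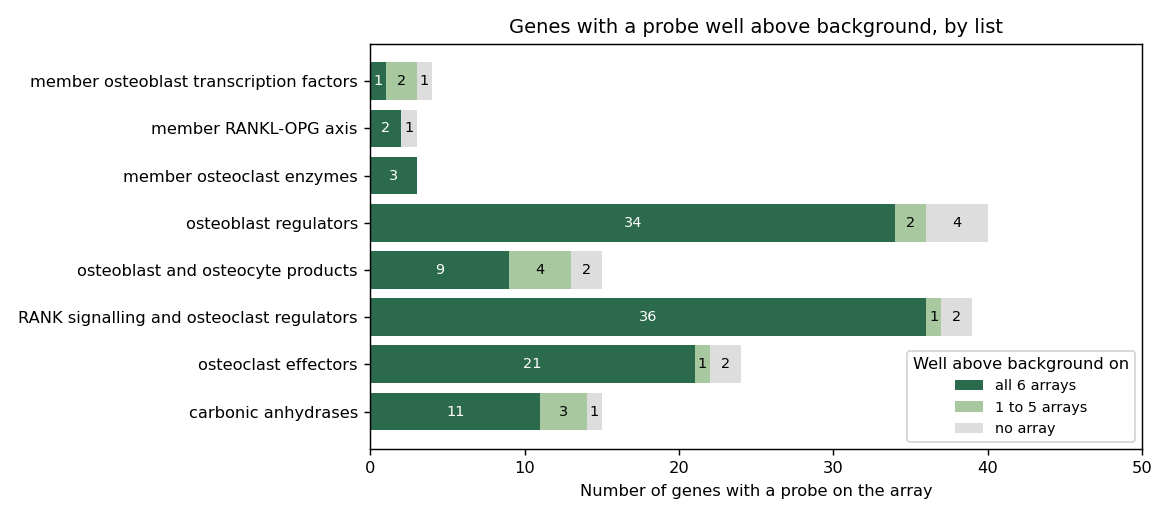
Number of genes of each list with a probe well above background on all 6 arrays, on 1 to 5, or on none. Of the 10 genes described, 6, 2 and 2 fall in these classes, and 21 of 24 osteoclast effectors were measured on every array.

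The strains were then compared over these pathway genes. Of 36 osteoblast regulators tested 0 were called, against 2.62% of all genes tested, with a list median of 0.014. Runx3 and Fosl2 had its smallest p, at -0.49 (adjusted p = 0.103) and -0.31 (adjusted p = 0.138). Cbfb, the partner that all RUNX factors bind, differed by 0.13, Msx1 by 0.24 and Dlx3 by 0.08, none of which passed.

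Of 13 products tested, 1 was higher and 0 were lower, with a median of 0.019. Over all genes tested, 0.404% were called higher and 2.21% lower. The one called was Cdh11, a cadherin of mesenchymal cells and osteoblasts, which had 86.9, 97.9 and 84.9 intensity units in B6.MRLc1, against 81.4, 74.1 and 70.6 in B6. It rose by 0.39 (SE 0.06, adjusted p = 0.0379), its other probe measured 0.19 and normexp gave 0.22, and it was called in 0 of the 6 fits that left out 1 array. Ibsp (bone sialoprotein) measured 1.55 and Spp1 (osteopontin) -1.68, with adjusted p = 0.0893 and 0.0957 in limma. Both were dim, Ibsp passing the background flag on 2 arrays of B6.MRLc1 and 1 of B6 and Spp1 on 1 of B6.MRLc1 and 3 of B6, and normexp gave 0.40 and -0.53. Omd, a small matrix proteoglycan of bone, measured 0.69 (adjusted p = 0.0903), and Col1a1, the main chain of bone collagen, 0.43 (adjusted p = 0.258).

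Of 36 genes of RANK signalling and osteoclast regulation tested, 0 were higher and 1 was lower, with a median of -0.031. Among all genes tested, 0.404% were called higher and 2.21% lower. Syk, the kinase that carries the co-stimulatory signal beside RANK, fell to 1139, 1160 and 1068 intensity units in B6.MRLc1, against 2168, 2055 and 1518 in B6. The difference was -0.62 (SE 0.10, adjusted p = 0.0429). A dimmer probe measured -1.08, but it was well above background on only 2 of the 6 arrays, too few to be tested. Syk was called in 1 of the 6 fits that left out 1 array, and it also acts in other blood cells. Traf6, the adaptor directly below RANK, measured 0.31 (adjusted p = 0.0638) on the probe tested and 0.020 and 0.26 on the others. Nfkb2 measured -0.36 (adjusted p = 0.0675), Il34 -0.36 (adjusted p = 0.110) and Fcer1g 0.38 (adjusted p = 0.112). Nfatc1, the master factor of osteoclasts, differed by -0.12 and Csf1r, the receptor that keeps their precursors alive, by -0.17, and neither passed. Of 21 osteoclast effectors tested 0 were called, against 2.62% of all genes tested. The list had a median of -0.071 with 16 of 21 below 0. All genes tested had a median of 0.018 and a 25th percentile of -0.11, and the direction of the list was not tested. Itgb3, the integrin chain by which osteoclasts hold on to bone, came closest (-0.35, adjusted p = 0.0959).

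Among the relatives of Car2, 13 other carbonic anhydrase genes were tested, of which 1 was higher and 2 were lower, with a median of -0.024. The shares over all genes tested were 0.404% called higher and 2.21% called lower. Car12, a membrane-bound form, had 127.4, 148.8 and 108.0 intensity units in B6.MRLc1, against 1081, 782.1 and 375.6 in B6. It fell by 2.29 on the log2 scale (SE 0.34, adjusted p = 0.0378), and every B6.MRLc1 array was below every B6 array. Car15 had 97.4, 103.5 and 102.3 intensity units in B6.MRLc1, against 156.9, 170.4 and 142.1 in B6, and fell by 0.49 (adjusted p = 0.0313). Car14, another membrane form, had 329.7, 324.0 and 317.7 in B6.MRLc1, against 237.7, 259.6 and 240.8 in B6, and rose by 0.53 (adjusted p = 0.0400). The strains did not overlap on either gene. With normexp the differences were -1.86 for Car12, -0.27 for Car15 and 0.45 for Car14. Car12 was called in 1 of the 6 fits that left out 1 array, and Car14 and Car15 in 0. In a fit of all probes without the filter on dim ones, none of the 5 pathway genes called here passed, with adjusted p of 0.0884 for Car12, 0.105 for Car14, 0.0919 for Car15, 0.108 for Syk and 0.108 for Cdh11.

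**Figure D5:**
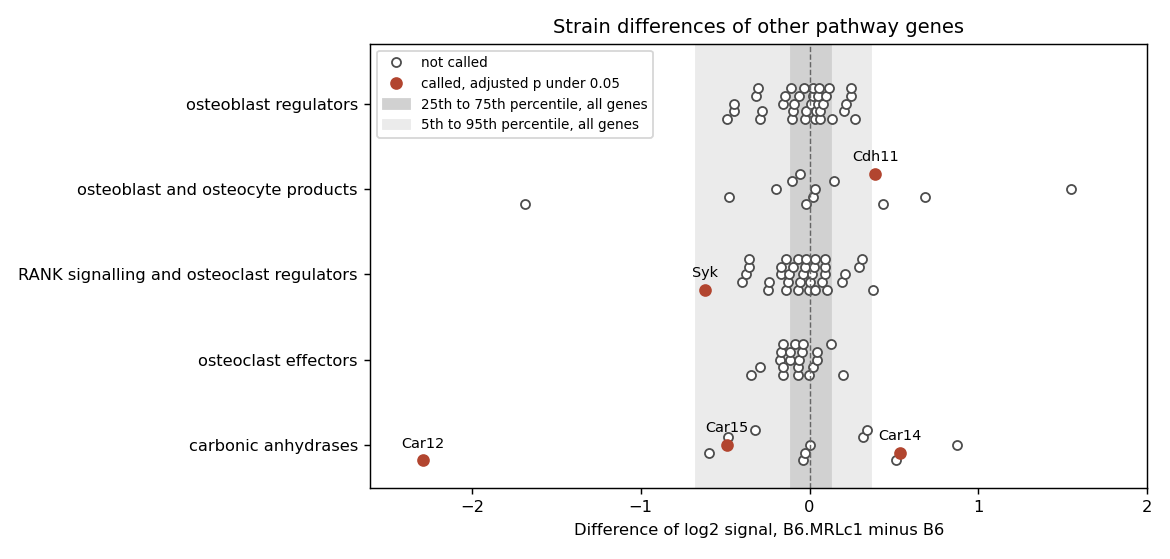
Difference in log2 signal, B6.MRLc1 minus B6, of each tested gene of 5 lists, with the bands of all genes. Filled points were called; these are Cdh11, Syk, Car12, Car15 and Car14, and no osteoblast regulator or osteoclast effector is filled.

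The testis label held up against its markers. All 14 Sertoli cell markers and all 9 Leydig cell markers on the array were well above background on every array. The summed signal of 14 round spermatid genes, in units of the 75th percentile, was 5.06 to 5.48 in B6.MRLc1 and 8.50 to 10.9 in B6. The sum of 16 elongating spermatid genes was 4.82 to 10.0 in B6.MRLc1 and 19.6 to 51.7 in B6, and that of 12 spermatocyte genes 17.1 to 21.0 in B6.MRLc1 and 23.3 to 29.8 in B6. Spermatogonium genes summed to 27.6 to 30.1 in B6.MRLc1 and 25.7 to 27.0 in B6. Peritubular myoid genes, which mark the contractile cells around the tubules, summed to 218.9 to 229.0 in B6.MRLc1 and 201.5 to 202.6 in B6, and endothelium genes to 12.11 to 13.003 in B6.MRLc1 and 13.11 to 13.75 in B6. The strain ranges did not overlap for any of these 6 lists, a separation that 28.6% of all single genes also showed. Called lower were 4 of 16 elongating spermatid, 5 of 14 round spermatid and 2 of 12 spermatocyte genes, against 2.21% of all genes tested. The list medians were -2.12, -1.04 and -0.12. Of the elongating spermatid genes 8 were well above background on only some arrays, as were 5 round spermatid and 2 spermatocyte genes. No gene of the spermatogonium, peritubular myoid or endothelium lists was called. Sertoli cell sums overlapped, at 959.9 to 1004.4 in B6.MRLc1 and 869.2 to 1004.1 in B6. Leydig cell sums did too, at 604.8 to 726.7 in B6.MRLc1 and 575.9 to 619.1 in B6. In such bulk RNA fewer cells of a type and less RNA per cell cannot be told apart. The adipocyte list, kept as a mark of fat carried over, summed to 8.26 to 15.9 in B6.MRLc1 and 4.99 to 7.18 in B6. These ranges did not overlap either, and Lep was not well above background on any array. T cell genes, a possible source of RANKL, summed to 4.45 to 4.96 in B6.MRLc1 and 4.32 to 4.74 in B6. The part of these marker lists in the values of Dlx5, Tnfrsf11a or Cdh11 was not tested. Spots passing the background flag made up 58.0% to 64.7% on B6.MRLc1 arrays and 68.6% to 69.0% on B6 arrays, and no spot was saturated.

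For the 6 genes well above background on every array, the genes whose level followed theirs most closely over the 6 arrays were looked up among 22049 genes. The likeness is Pearson's r over 6 arrays, given as a description. Msx2 was most like Cpne3 and Oma1 (r = 0.991 for both), and Tnfrsf11a like Zfp948 (r = 0.999) and Bag3 (r = 0.993). Tnfrsf11b was most like Unc119b (r = 0.971) and Arfgef1 (r = 0.969). Ctsk was closest to Arhgap28 (r = 0.988) and Extl2 (r = 0.987), Acp5 to Lyrm1 (r = 0.983) and Rab5if (r = 0.979), and Car2 to Ostf1 (r = 0.988) and Snhg6 (r = 0.974). With 6 arrays such values are common: between 122 genes for Tnfrsf11b and 1108 for Msx2 had an r beyond 0.9 in either direction. None of the 12 genes was called different between the strains.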

How the data were processed

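Total RNA (0.1 ug) of each testis was labelled with Cy3 and hybridised to a one-colour Agilent array, per the labels' protocols. The deposited tables give intensity on a linear scale, background-subtracted and detrended by the scanner software with surrogate values near background, per the file headers, and flags of 0 or 1 per spot in other columns. The headers name Feature Extraction 10.7.3.1 and the submitters' processing notes 9.5.3. The authors' deposited series table is on the log2 scale; how it was made is not given here.

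Here each array was divided by its 75th percentile, outlier spots and control spots were left out, log2 was taken and spots of a probe were averaged. A probe was kept with values on at least 4 arrays and over 0.5 of its spots well above background on at least 3, which left 36626 of 55681 probes. The probe with the highest mean stood for a gene, giving 25275 genes, which limma 3.58.1 in R 4.3.3 compared (lmFit, then eBayes) and called at an adjusted p under 0.05. Names came through RefSeq (GRCm38.p6) accession for 27235 probes, by symbol for 3581 and from the file alone for 24865. The design text counts 3 mice per strain, so an array stands for 1 mouse here. The number of arrays limits the precision. On simulated data with 200 of 25270 genes changed, the B6.MRLc1 and B6 comparison recovered 72% of changes of 2-fold and 86% of 4-fold, with 10 false calls. The simulated noise was drawn for each gene alone, so effects shared by all genes of an array were left out. These shares are averages over genes of all signal levels, so they do not give the recovery for dim genes such as Dlx5. All arrays shared 1 slide and 1 scan; B6.MRLc1 lay in slide row 2 and B6 in row 1, so row and strain cannot be told apart.

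The 10 genes and all lists were chosen with earlier results of these data known. The text names these genes, the called members of each pathway list with up to 4 others of smallest p, markers that define a cell type, and the 2 genes most like each gene measured on all arrays; Cbfb, Msx1, Dlx3, Nfatc1, Csf1r, Dcstamp, Ocstamp and Bglap were added for their roles.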

Additional observations from a re-analysis of the deposited data

How the results depend on the processing

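Of the 10 genes, those that could be tested under each alternative (8 in most, 7 with the deposited values, 6 with detection on all arrays, 10 without the filter) gave 0 calls in 16 of 17, and array weights called 1, Dlx5, at 1.33 (adjusted p = 0.0461). Dlx5 had a value under 15 of the 17. The number of all genes called was 661 as reported, 50 without the filter on dim probes, 440 from the authors' deposited table, 1202 with a trended variance and 4236 with array weights, and it ran from 50 to 482 in fits that left out 1 array each. Adding the replicate block left 0 calls in limma, and Msx2 then measured -0.33 (SE 0.06, adjusted p = 0.148). Arrays of the same number had correlations of -0.044, 0.17 and 0.088 between their deviations from the strain means, and not every array was closest to its own number, so the numbers were not taken to pair the mice; they also name the slide column. No fit with slide row as a block was run, since each row held 1 strain. Sp7 changed sign with normexp (0.055), with a floor on dim values (0.10), with the deposited values (0.17), with array weights (0.23) and without B6 array 3 (0.092). Its fits without 1 array ran from -0.28 to 0.092. Tnfrsf11b turned to -0.088 with array weights, Ctsk to 0.090 and Car2 to 0.011 without B6 array 1; without 1 array Ctsk ran from -0.17 to 0.090 and Car2 from -0.28 to 0.011. The cause of these changes was not tested. Counting genes on at least 1 array gave 8 of 10, on all 6 arrays 6, and by the negative control limit, chosen after seeing the data, 9, with Runx2 added. That limit follows each array's floor, so the 9 is no count of genes detected. Signal over background limits what can be said of Runx2, Tnfsf11, Sp7 and Dlx5.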
